A study of Saccharomyces cerevisiae with 12 samples.

Results

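*PHO5*, *SUC2* and *ADH2* of *Saccharomyces cerevisiae* are inducible genes, and acetylated histone H4 (AcH4) was followed across them by ChIP on tiling arrays. The genes and the windows beside them were chosen with earlier results of these data known. All probes whose centre lay inside one of the 3 genes or within 700 bp of its ends were then taken by position, whatever their values. This gave 28 of the 41775 non-control probes of the array, with 8 for *PHO5* (YBR093C, chromosome 2), 11 for *SUC2* (YIL162W, chromosome 9) and 9 for *ADH2* (YMR303C, chromosome 13). By position, 7 probes lay upstream, 12 in the gene bodies and 9 downstream. The 4 strains were wild type BY4741 and the single deletion mutants *rco1*Δ, *rsc1*Δ and *rsc2*Δ, with 3 biological repeats and 3 arrays each. All strains were grown in YPD, a rich medium with glucose, to an OD600 of 1.0-1.2. Immunoprecipitated (IP) DNA carried Cy5 and the input DNA of the same strain Cy3, after double T7 linear amplification of both. The groups therefore differed by the deleted gene and shared the medium, the antibody and the labeling.

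*PHO5* encodes a repressible acid phosphatase that Pho4 activates when phosphate is scarce. *SUC2* encodes invertase, which splits sucrose, and *ADH2* encodes the alcohol dehydrogenase that oxidises ethanol, and glucose represses both. Histone acetylation is typically highest around the promoters and 5′ ends of active genes. Rco1 is a subunit of Rpd3S, a histone deacetylase complex that acts on transcribed gene bodies, whereas Rsc1 and Rsc2 are alternative bromodomain subunits of the chromatin remodeler RSC. The locus tags of the flanking genes place a divergent gene upstream of each member (*PBY1*, YBR094W, for *PHO5*, YIL163C for *SUC2* and *UBP15*, YMR304W, for *ADH2*). They place a gene on the same strand downstream of each (*PHO3*, YBR092C, *SMU2*, YIL161W, and *YME2*, YMR302C). Every flanking window therefore faces the 5′ side of a neighboring gene as well as an end of the member.

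Each value is a log2 ratio of IP over input with the median probe of the array at 0, so 1 unit is a doubling of the ratio relative to that probe. Probe positions are those of the array design on sacCer1, whereas the gene ends are those of another assembly, so a probe near a boundary could belong to either side. Each mutant lacked input signal at its deleted gene, with a mean log2 difference of -4.42 for *rco1*Δ, -4.81 for *rsc1*Δ and -4.34 for *rsc2*Δ. The share of nuclear probes that cleared the background well ran from 79.0% to 99.8% over the arrays for input and from 82.3% to 98.9% for IP. Among the 28 member probes, 14 did so for input and IP alike on each of the 12 arrays. The distribution of all nuclear probes was narrower in *rco1*Δ than in the other strains, with a median absolute deviation of 0.59 ± 0.09 (SD, n = 3) against 1.12 ± 0.03 (SD, n = 3) in wild type. It was wider than in wild type in *rsc1*Δ (1.27 ± 0.03) and in *rsc2*Δ (1.25 ± 0.03, SD, n = 3). According to the scanner headers, the 3 *rco1*Δ arrays and wild type replicate 3 bear the slide and position of an array scanned earlier with another strain. No *rco1*Δ array lacks that feature and only 1 wild type array has it, so the comparison of *rco1*Δ with wild type is given below also between 2 arrays that both bear it.

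In wild type, AcH4 was higher in the windows beside the 3 genes than inside them, and only the *PHO5* body mean lay below the array median. The median over the 7 upstream probes was 1.02, that over the 12 gene body probes 0.30 and that over the 9 downstream probes 1.01. Of the 28 probes, 24 were above the array median, and 5 were above the 90th percentile of all nuclear probes. None of those 5 was inside a gene body.

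*PHO5* had the lowest gene body of the 3. Its body mean was -0.32, -0.25 and -0.37 on the 3 wild type arrays, while its upstream mean was 0.78, 0.83 and 1.14. The upstream mean exceeded the body mean on every wild type array, by 1.23 ± 0.25 (SD, n = 3). The highest probe of the *PHO5* set was not at its own promoter but downstream, toward the acid phosphatase gene *PHO3*, at chr2:429141-429200 (sacCer1), with ratios of 1.52, 1.96 and 1.66. The lowest probe was chr2:429488-429547, at the 3′ end of *PHO5*, with ratios of -0.62, -1.44 and -0.96. These lie at the 89.1 and 29.3 percentiles of nuclear probes. *PHO3* and *PHO5* are close paralogues, and whether a probe for one also takes up DNA of the other was not tested.

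Along *SUC2*, the ratio differed strongly between neighboring probes and was lowest at the 3′ end of the gene. The upstream probe chr9:37023-37082, 332 bp before the gene start, gave 2.20, 1.94 and 2.38, whereas the other upstream probe, 494 bp before the start, gave 0.31, -0.09 and -0.11. The gene body probes 74 and 343 bp after the start gave 0.88 ± 0.11 and 1.50 ± 0.35 (SD, n = 3), and those at 608, 824 and 1124 bp gave 0.37 ± 0.15, 0.17 ± 0.46 and 0.07 ± 0.25 (SD, n = 3). The last gene body probe, chr9:38780-38839 at 1424 bp, was the lowest of the *SUC2* set, at -1.28, -0.86 and -1.06. Beyond the gene the ratio climbed again toward *SMU2*, to 1.74, 4.15 and 2.20 at chr9:39565-39624, the highest of the *SUC2* set. That last probe was well above background in the input channel on only 1 of the 3 wild type arrays, so its denominator is poorly measured and its arrays spread widely.

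*ADH2* had a sharp upstream peak at chr13:874498-874554, 189 bp before the gene start, with 2.11, 2.77 and 2.41 on the wild type arrays. Its body mean was 0.49, 0.40 and 0.71, and its upstream mean exceeded its body mean on every array, by 0.76 ± 0.19 (SD, n = 3). A second peak of 2.67, 1.56 and 1.84 lay at chr13:873159-873218, just past the 3′ end on the *YME2* side. Its input was well above background on 2 of the 3 wild type arrays. The lowest probe of the set was chr13:872924-872982, farther downstream, with 0.10, -0.08 and 0.10. Across the 3 genes, the wild type body means ran from 0.54 ± 0.16 for *ADH2* through 0.32 ± 0.13 for *SUC2* to -0.32 ± 0.06 for *PHO5* (SD, n = 3). The *ADH2* and *SUC2* arrays overlapped, whereas those of *PHO5* lay below both. The upstream means, at 1.30 ± 0.08 for *ADH2*, 1.11 ± 0.17 for *SUC2* and 0.91 ± 0.20 for *PHO5* (SD, n = 3), overlapped between neighbors in that order.

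**Figure D1:**
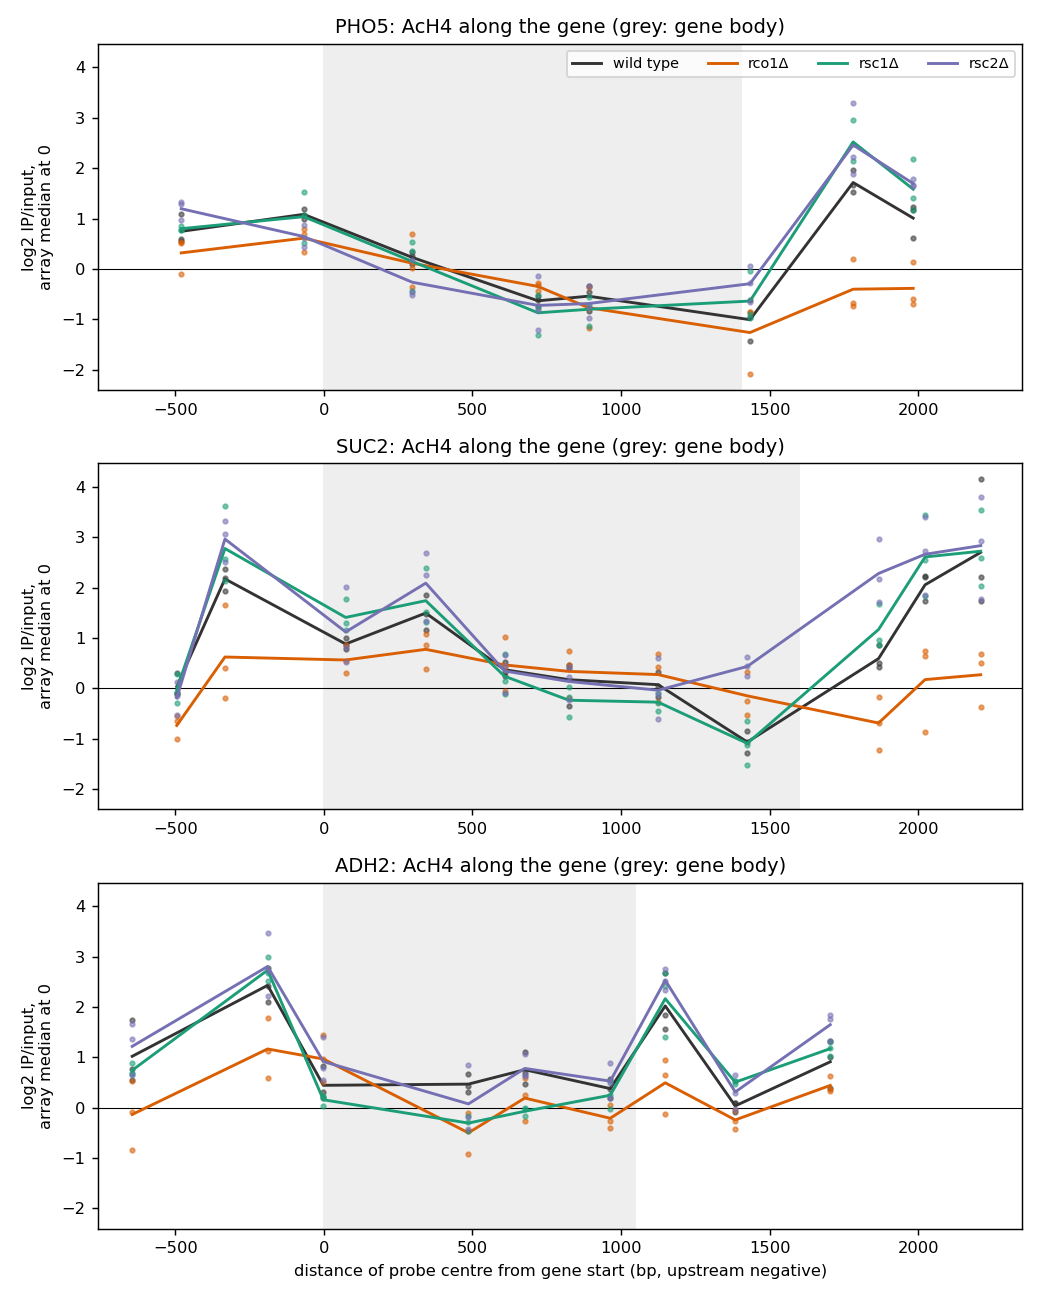
Log2 IP over input (array median at 0, y axis) against the distance of the probe centre from the gene start in bp (x axis, upstream negative) for *PHO5*, *SUC2* and *ADH2*. Points are single arrays, lines the means of the 3 arrays of a strain and the grey band the gene body. The *rco1*Δ line lies below wild type at the flanking peaks, and the *rsc2*Δ line lies above it at the 3′ end of *SUC2*.

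The *rco1*Δ strain was compared with wild type to ask where AcH4 changes when Rpd3S lacks Rco1. On the log2 scale, the change of the IP over input ratio at these 3 genes lay mainly outside the gene bodies and was downward. Inside the bodies, the input and IP signals were each lower at most probes, as given below. The *rco1*Δ distribution was narrower, and the median percentile among nuclear probes was lower only downstream. It went from 75.6 to 79.7 upstream, from 56.8 to 57.3 in the bodies and from 75.2 to 37.7 downstream. Upstream means moved from percentile 72.8 to 73.4 at *PHO5*, 82.0 to 82.1 at *ADH2* and 77.6 to 46.5 at *SUC2*. Of the 28 probes, 11 were lower in *rco1*Δ and 1 was higher at an adjusted p under 0.05 (limma, adjusted over 41480 nuclear probes), against 28.1% of all nuclear probes called lower and 26.0% called higher. Among the flanking probes, 4 of 7 upstream and 6 of 9 downstream were called lower and none higher. Among the 12 gene body probes, 1 was called lower and 1 higher. The median difference was -0.52 over the 28 probes and -0.24 over all nuclear probes. The number called was between 9 and 12 when any single array was left out. Of the 12 calls, 5 held after normexp background correction, 6 after plain subtraction, 3 after loess and 5 with the deposited value table.

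At *PHO5*, the probes that passed the test were both downstream, and none in the promoter or the body did. The probe chr2:429141-429200 read -0.67, -0.74 and 0.20 in *rco1*Δ, below all wild type arrays. It fell by 2.12 on the log2 scale (SE 0.37, adjusted p = 0.000188, limma) and moved from the 89.1 to the 31.0 percentile. The neighboring probe chr2:428945-428992 fell from 1.01 ± 0.34 to -0.39 ± 0.45 (SD, n = 3, adjusted p = 0.00168, limma). The body mean was -0.14, -0.21 and -0.66 in *rco1*Δ, which overlapped wild type (difference -0.02, SE 0.17, exact permutation test, two-sided, p = 1). The upstream mean was 0.35, 0.62 and 0.42, below every wild type array (difference -0.45, SE 0.14, exact permutation test, p = 0.1), but no upstream probe was called. An exact p of 0.1 is the smallest that 3 arrays against 3 allow, and 48 such comparisons of region means and of upstream minus body were made. Of the 28 single probes, 17 did not overlap wild type in *rco1*Δ. Over the nuclear probes with a value on all arrays compared, 34.6% lay wholly below wild type and 28.3% wholly above. The upstream difference was 0.04 with plain background subtraction and 0.35 with the deposited value table, so its direction depends on the processing.

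At *SUC2*, both upstream probes and all 3 downstream probes were called lower, while the gene body mean lay within the spread of wild type. The upstream mean was -0.12, -0.60 and 0.55 in *rco1*Δ, below every wild type array, with a difference of -1.16 (SE 0.35, exact permutation test, two-sided, p = 0.1). The probe 332 bp upstream read 0.41, -0.20 and 1.65 and fell by 1.55 (SE 0.43, adjusted p = 0.00636, limma). The body mean was 0.64, 0.30 and 0.20, a difference of 0.06 (SE 0.15) that lay within the spread of the arrays (exact permutation test, p = 0.8). The upstream minus body difference thus went from 0.78 ± 0.12 in wild type to -0.43 ± 0.69 in *rco1*Δ (SD, n = 3), with *rco1*Δ replicate 3 at 0.35 and the other two at -0.76 and -0.90. The downstream probe chr9:39565-39624, whose input was poorly measured in wild type, read -0.38, 0.69 and 0.50 and fell by 2.43 (SE 0.58, adjusted p = 0.00217, limma). Its neighbor chr9:39378-39437, whose input was well above background on all wild type and *rco1*Δ arrays, fell by 1.88 (SE 0.47, adjusted p = 0.00315, limma).

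Of the 6 probes with a higher mean in *rco1*Δ, the only 1 called was the last gene body probe of *SUC2*, chr9:38780-38839. It read -0.24, -0.52 and 0.32, above all wild type arrays, a difference of 0.92 (SE 0.30, adjusted p = 0.0162, limma). It lost its call without wild type replicate 1 (0.81, adjusted p = 0.0611, limma) and without *rco1*Δ replicate 3 (0.68, adjusted p = 0.0744, limma). With scan day as a block, which left 1 array of each strain, its difference was 0.82. With the deposited value table it was -0.28, so its direction depends on the processing.

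At *ADH2*, the upstream peak kept its place but not its height, and the gene body was lower as well. The peak probe chr13:874498-874554 read 0.59, 1.13 and 1.79 in *rco1*Δ and fell by 1.26 (SE 0.36, adjusted p = 0.00690, limma). On the narrower *rco1*Δ distribution it stayed near the top, at the 95.9 percentile against 96.4 in wild type. The probe 644 bp upstream fell by 1.15 (SE 0.38, adjusted p = 0.0170, limma). In contrast, the probe over the gene start, chr13:874309-874368, read 0.96, 0.51 and 1.44 against 0.32, 0.19 and 0.83 in wild type. That difference of 0.52 (SE 0.31) was not called (adjusted p = 0.161, limma) and its arrays overlapped, while its percentile went from 60.5 to 91.9. The body mean was 0.07, -0.48 and -0.10, below every wild type array (difference -0.71, SE 0.19, exact permutation test, two-sided, p = 0.1). It was -0.16 with the deposited value table, where the arrays overlapped. Within the body, chr13:873827-873874 was called, with -0.11, -0.92 and -0.46 against 0.43, 0.32 and 0.66 in wild type (difference -0.97, SE 0.33, adjusted p = 0.0195, limma). The downstream peak chr13:873159-873218 read -0.12, 0.65 and 0.95 and fell by 1.53 (SE 0.38, adjusted p = 0.00291, limma). Its input was well above background on 2 wild type and 2 *rco1*Δ arrays only.

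**Figure D2:**
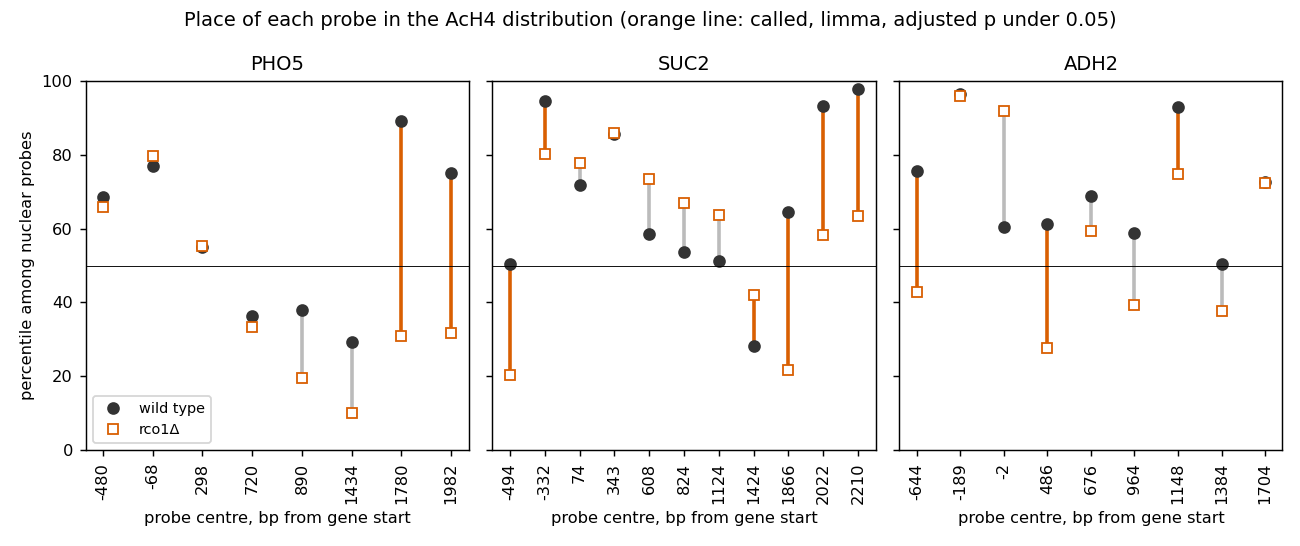
Percentile of each probe's mean log2 ratio among nuclear probes (y axis) in wild type (filled circles) and *rco1*Δ (open squares), with probes ordered by distance from the gene start in bp (x axis). Orange lines join the values of probes called in limma. The peak of *ADH2* 189 bp upstream keeps its percentile (96.4 and 95.9), whereas the *PHO5* probe at 1780 bp goes from 89.1 to 31.0.

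Only 1 *rco1*Δ array shared a scan day with a wild type array. Between those arrays, *rco1*Δ replicate 1 and wild type replicate 3, which shared a slide and both bear the place of an array scanned earlier, 19 of 28 probes were lower in *rco1*Δ and the median difference was -0.50. On the other slide that held both strains, 20 of 28 were lower, with a median of -0.50. The regional differences were -1.25 and -1.69 at the *SUC2* upstream window, -1.38 and -1.27 downstream of *PHO5*, and -0.65 and -0.93 in the *ADH2* body on these 2 slides. At the *PHO5* upstream window they were -0.79 and -0.18. With slide as a block, 11 of the 28 probes were called. Scan day as a block leaves the comparison to *rco1*Δ replicate 1 and wild type replicate 3, since the other *rco1*Δ arrays shared no scan day.

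The input and IP channels did not contribute alike. In the IP channel, with the median of each array at 0, 25 of 28 probes were lower in *rco1*Δ, and 13 of them did not overlap wild type, against 52.7% and 26.8% of all nuclear probes. By region, 11 of 12 gene body probes were lower, 8 of them without overlap, with a median of -0.75. Of the 16 flanking probes, 14 were lower, 5 of them without overlap, with a median of -0.53. In the input channel, 10 of 12 gene body probes were lower, with a median of -0.59, and 10 of 16 flanking probes were higher, with a median of 0.44, while 52.5% of all nuclear probes were higher. Input was lower without overlap at 5 of the 12 gene body probes, against 10.8% of all nuclear probes. At the *ADH2* peak probe, the input separated the strains and the IP did not. Its IP signal was 4.90, 4.22 and 5.57 in *rco1*Δ and 4.70, 4.67 and 4.23 in wild type, which overlapped. Its input signal was 4.23, 3.02 and 3.65 in *rco1*Δ against 2.48, 1.78 and 1.70, with no overlap. At the *PHO5* downstream probe chr2:429141-429200 the input also differed without overlap (5.86, 4.65 and 5.48 against 4.17, 3.58 and 3.62), and the IP overlapped. In the *ADH2* body the IP mean differed by -1.67 and the input mean by -0.94, both without overlap, so the ratio differed by less than the IP signal. The input difference was -0.47 without *rco1*Δ replicate 1. In the flanks, the IP signal was lower at most probes. Input was higher at most downstream probes, but upstream only at *SUC2* chr9:37023-37082 and at the *ADH2* peak probe. It was higher without overlap at 2 of the 16 flanking probes, against 20.6% of all nuclear probes. The part of the input in the result was not tested.

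**Figure D3:**
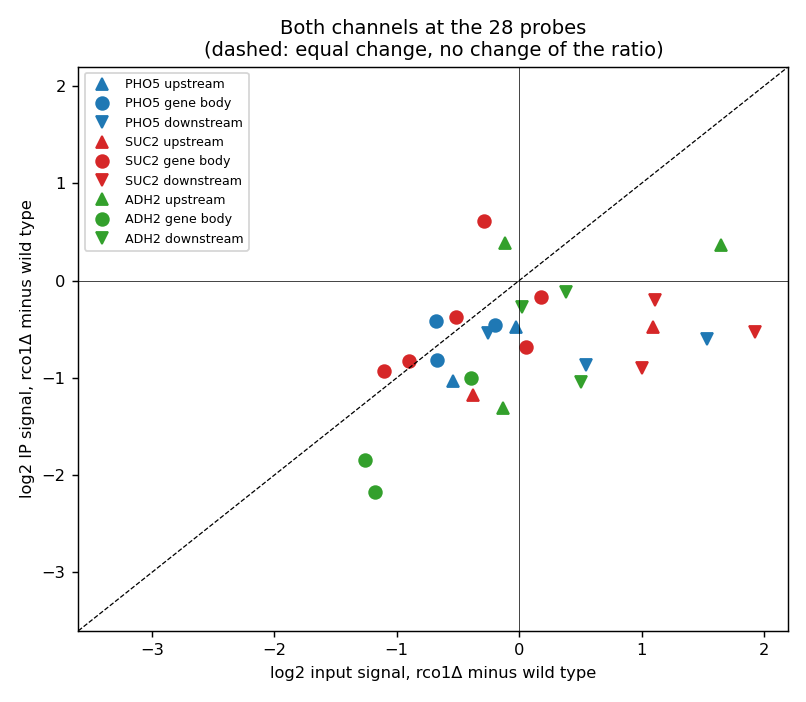
Difference of *rco1*Δ minus wild type in the log2 input signal (x axis) and in the log2 IP signal (y axis) at the 28 probes, each channel with its array median at 0, by gene (color) and region (marker). Points below the dashed line have a lower ratio in *rco1*Δ. Among the flanking probes, input was higher at 10 of 16, most of them downstream, and IP was lower at 14 of 16.

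In *rsc2*Δ, the comparison with wild type asks what AcH4 does without this RSC subunit, and the 3′ end of *SUC2* was the place where members passed the test. Called higher were 2 of the 28 probes, and called lower 0 (limma), against 0.154% and 0.374% of all nuclear probes, and 4 had an unadjusted p under 0.05 (14.3%, against 14.1% of all nuclear probes). The last gene body probe of *SUC2*, chr9:38780-38839, read 0.25, 0.44 and 0.62, above the highest wild type array at -0.86. Its difference was 1.50 (SE 0.30, adjusted p = 0.0334, limma), and it went from the 28.3 to the 59.0 percentile. The first downstream probe, chr9:39222-39280, read 2.96, 1.71 and 2.17 in *rsc2*Δ against 0.42, 0.85 and 0.50 in wild type. It rose by 1.69 (SE 0.35, adjusted p = 0.0403, limma), from the 64.4 to the 91.9 percentile. The 2 probes are adjacent on the tiling and were read from the same sheared DNA.

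Both directions held on each slide shared with wild type, at 1.32 and 1.50 for chr9:38780-38839 and at 2.32 and 1.22 for chr9:39222-39280. The calls did not hold as well. Leaving out any single array left 0 or 1 of the 2, and none remained with slide or scan day as a block, with the other background corrections or with arrays scaled to the same spread. Over all alternatives the differences stayed between 1.12 and 1.61 for the first probe and between 0.87 and 1.97 for the second.

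Elsewhere the *rsc2*Δ values differed from wild type by less. Of the 28 single probes, 6 did not overlap wild type, while 12.4% of nuclear probes lay wholly above it and 12.2% wholly below. All 9 downstream probes were higher, by between 0.13 and 1.69, while 47.2% of all nuclear probes were lower. The *PHO5* and *ADH2* downstream means did not overlap wild type (differences 0.72 and 0.51, each with p = 0.1 in the exact permutation test). Downstream means went from percentile 63.8 to 78.3 at *PHO5*, 90.2 to 94.5 at *SUC2* and 74.8 to 82.0 at *ADH2*. The *ADH2* downstream mean was 1.50, 1.49 and 1.50 on the *rsc2*Δ arrays and 1.05, 0.94 and 0.98 on the wild type arrays. The upstream means of *SUC2* and *ADH2* were also higher without overlap, by 0.28 (SE 0.14) and 0.35 (SE 0.12), and the former was 0.19 without *rsc2*Δ replicate 1. On the wider *rsc2*Δ distribution, these means went from percentile 77.6 to 80.2 and from 82.0 to 84.3. The upstream differences of *SUC2* and *ADH2* were 0.03 and 0.09 after loess normalization, where the arrays overlapped. The *SUC2* upstream probes went opposite ways, by 0.79 at 332 bp and by -0.22 at 494 bp before the gene start. The *PHO5* upstream mean was 0.92 ± 0.16 in *rsc2*Δ and 0.91 ± 0.20 in wild type (SD, n = 3), with a difference of 0.00 (SE 0.15). Its 2 probes went opposite ways, by -0.44 at chr2:430989-431048, without overlap, and by 0.45 at chr2:431401-431460, where the arrays overlapped. The gene bodies of *PHO5* and *ADH2* differed by -0.24 (SE 0.15) and -0.07 (SE 0.25), with overlapping arrays.

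**Figure D4:**
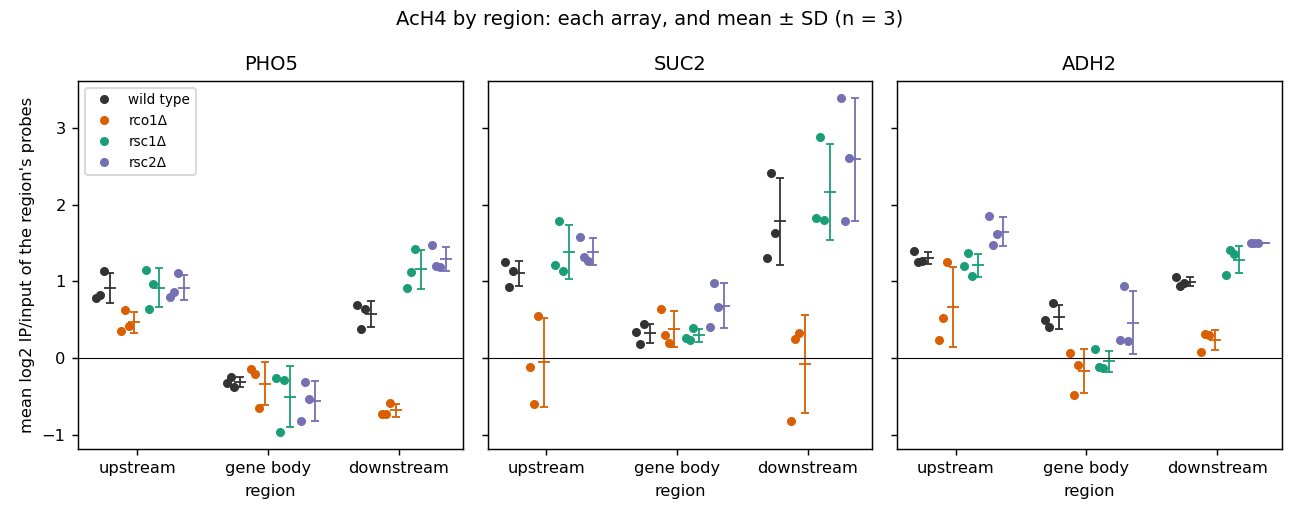
Mean log2 IP over input of the probes of each region (y axis) for the upstream window, the gene body and the downstream window (x axis) of the 3 genes. Dots are the 3 arrays of a strain and the bars mean ± SD. The *rco1*Δ arrays lie below all other arrays downstream of each gene, and the *rsc1*Δ body mean of *ADH2* (-0.04) lies near that of *rco1*Δ (-0.17).

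In *rsc1*Δ, none of the 28 probes was called either way (limma), against 0.0482% of nuclear probes called higher and 0.0603% called lower, and 3 had an unadjusted p under 0.05 (10.7%, against 8.05% of all nuclear probes). The gene bodies leaned down and the downstream windows up, with 10 of 12 body probes lower and 9 of 9 downstream probes higher, but the median over all 28 was 0.00. Over all nuclear probes, 46.7% were lower in *rsc1*Δ, whose distribution was wider than that of wild type. Body means went from percentile 42.4 to 39.5 at *PHO5*, 57.3 to 55.7 at *SUC2* and 62.9 to 48.5 at *ADH2*. Downstream means went from percentile 63.8 to 75.2, 90.2 to 91.1 and 74.8 to 77.8 in that order. The largest negative shift of a region was in the *ADH2* body, where the mean was 0.12, -0.12 and -0.13, below every wild type array (difference -0.58, SE 0.12, exact permutation test, two-sided, p = 0.1). Its probe chr13:873635-873687 read -0.01, -0.03 and -0.17 against 0.47, 0.69 and 1.11, and its difference of -0.82 (SE 0.29) was not called (adjusted p = 0.478, limma). The *ADH2* upstream mean, at 1.19, 1.37 and 1.07, overlapped wild type, so its excess over the body exceeded that of wild type by 0.49 (SE 0.16, exact permutation test, p = 0.1). After loess normalization that increase was 0.00 and the body difference -0.22. The largest positive probe difference was that of the *PHO5* downstream probe chr2:429141-429200, with 2.47, 2.95 and 2.14, a difference of 0.81 (SE 0.37) that was not called (adjusted p = 0.603, limma). The *PHO5* and *ADH2* downstream means exceeded wild type without overlap, by 0.58 (SE 0.18) and 0.29 (SE 0.11). Of the 28 single probes, 6 did not overlap wild type, while 8.92% of nuclear probes lay wholly above it and 7.35% wholly below.

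The direct comparison of *rsc1*Δ with *rsc2*Δ asked whether the alternative RSC subunits differ. It called 1 of the 28 probes lower and 0 higher in *rsc1*Δ (limma), against 0.448% and 0.494% of all nuclear probes. This was again *SUC2* chr9:38780-38839, which read -1.51, -1.12 and -0.64 in *rsc1*Δ, a difference of -1.53 (SE 0.30, adjusted p = 0.0202, limma). The *rsc1*Δ arrays overlapped wild type at this probe, and every *rsc2*Δ array was above both. The difference was -1.76, -1.56 and -1.26 on the 3 slides, each of which held 1 array of each strain. The call was lost without *rsc1*Δ replicate 1 or 2 and without *rsc2*Δ replicate 2 or 3, with adjusted p between 0.0510 and 0.114 (limma). At chr9:39222-39280, the *rsc1*Δ arrays read 0.86, 1.68 and 0.97 and the difference from *rsc2*Δ of -1.11 (SE 0.35) was not called (adjusted p = 0.170, limma).

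At *ADH2*, the *rsc1*Δ arrays lay below the *rsc2*Δ arrays in all 3 regions, with differences of -0.44 upstream, -0.50 in the body and -0.22 downstream (p = 0.1 in each exact permutation test). Without *rsc2*Δ replicate 2 the body difference was -0.27, and without *rsc1*Δ replicate 1 the downstream difference was -0.11. The downstream difference changed direction, to 0.02, with plain subtraction and with loess. The upstream difference was -0.07 over bright probes, which left only the peak probe chr13:874498-874554. The *SUC2* body also separated the strains, with a difference of -0.38 (SE 0.18) that was -0.23 without *rsc2*Δ replicate 2, and the called probe is 1 of its 6. At *PHO5* no region separated these strains, with differences of 0.00 (SE 0.18) upstream and 0.05 (SE 0.27) in the body. The 2 upstream probes went opposite ways, by 0.40 at chr2:430989-431048 and by -0.40 at chr2:431401-431460, the latter without overlap. Of the 28 single probes, 6 did not overlap between these strains. Over nuclear probes, *rsc1*Δ lay wholly above *rsc2*Δ at 8.59% and wholly below at 7.73%. The comparisons of *rsc1*Δ, *rsc2*Δ and *rco1*Δ with wild type share the same 3 wild type arrays.

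Over the 4 strains, the order of the gene bodies was not constant. *PHO5* had the lowest body mean in each strain, from -0.32 in wild type to -0.56 in *rsc2*Δ. In *rco1*Δ it overlapped *ADH2*, whereas in the other strains it lay below both other genes. *ADH2* was above *SUC2* in wild type but below it in *rco1*Δ (-0.17 against 0.38) and *rsc1*Δ (-0.04 against 0.30), with no overlap of the arrays in either mutant. It was below *SUC2* in *rsc2*Δ too (0.46 against 0.68), where the arrays overlapped, as they did in wild type. Among 10718 windows of 1 kb with at least 3 probes, the window whose 12 array values lay nearest to the *SUC2* body was chr7:1003000-1003999, at a Euclidean distance of 0.34 against a median of 3.41. For the *PHO5* body it was chr4:730000-730999 (0.62, median 4.02) and for the *ADH2* body chr10:194000-194999 (0.77, median 3.52). The smallest of so many distances lies below their median by construction. The second nearest window lay at 0.62 for *PHO5*, 0.56 for *SUC2* and 0.77 for *ADH2*.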

How the data were processed

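AcH4 was measured on 12 Agilent 2-color arrays. The authors deposited the scanner output of Feature Extraction 10.5.1.1, which holds linear spot intensity, and a table of log2 ratios normalized by the median and by Aquantile. Spot signals in the main setting were background-subtracted and dye-corrected by that software. The log2 ratio of the processed Cy5 over Cy3 signal was computed, centered on each array's median, without outlier spots or the 3444 control spots. The deposited log2 table served as an alternative.

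A linear model with 4 groups was fitted to the 41480 nuclear probes of all 12 arrays in limma 3.58.1 (R 4.3.3). Calls needed a Benjamini-Hochberg adjusted p under 0.05. The fit was first checked on simulated data. Region means per array were compared by exact permutation tests (scipy 1.17.1). Percentiles rank a probe's strain mean among nuclear probes. The members, windows and lists were chosen with earlier results of these data known. Named probes are the highest and lowest in wild type and the largest difference either way per gene and comparison. Also named are called probes, those beside them and the *PHO5* upstream probes, chosen after their values were seen.

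Alternatives were other background corrections, loess, Aquantile, a common spread, bright probes only, a window of 500 bp, blocks for repeat number, slide and scan day, a fit of the compared strains alone, an adjusted p under 0.01 and leaving out 1 array at a time. Boundaries moved by 50 bp were added after seeing the data. Promoter motifs were not searched, since no sequences were used here. Gene names and neighbors came from the RefSeq table of R64, whose positions were not used. The number of arrays limits the precision. Repeat numbers paired *rsc1*Δ with *rsc2*Δ arrays by slide and scan, but did not pair the mutant arrays with wild type throughout.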

Additional observations from a re-analysis of the deposited data

Results flagged for a closer look

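The *SUC2* probe chr9:38780-38839 separated *rsc1*Δ from *rsc2*Δ by a test of the difference itself. Its difference was -1.53 on the log2 scale (limma, adjusted p = 0.0202), with all 3 *rsc1*Δ arrays below all 3 *rsc2*Δ arrays. Against wild type it differed by -0.03 in *rsc1*Δ and by 1.50 in *rsc2*Δ. It was well above background in both channels on every array of wild type, *rsc1*Δ and *rsc2*Δ, and in the input channel on 2 of 3 *rco1*Δ arrays. Over the alternatives the adjusted p ran from 0.0153 to 1.00 and the difference from -1.75 to -0.74.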

How the results depend on the processing

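With 12 probes called in *rco1*Δ, 5 were called after normexp background correction, 6 after plain subtraction, 3 after loess, 5 with the deposited value table and 7 over bright probes. With scan day as a block that comparison rested on 1 *rco1*Δ and 1 wild type array. Of the 2 called in *rsc2*Δ, 0 were called after normexp, plain subtraction or loess, with the deposited table, with arrays scaled to the same spread, with slide or scan day as a block or at an adjusted p under 0.01, and 1 over bright probes or with only the compared arrays. The single *rsc1*Δ against *rsc2*Δ call was 0 after normexp, subtraction or loess, with the table, scaled, over bright probes, with only the compared arrays or at the stricter p. Leaving out 1 array gave 9 to 12, 0 to 1 and 0 to 1 calls. In *rsc1*Δ against wild type, 0 probes were called in every setting. The rise of the *SUC2* probe chr9:38780-38839 in *rco1*Δ became -0.28 with the table.

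Arrays of *rsc1*Δ and *rsc2*Δ with the same repeat number shared a slide and a scan. In the comparisons with wild type, repeat numbers did not pair the arrays in this way throughout. With the replicate block, 12 probes were called in *rco1*Δ, 1 in *rsc2*Δ and 1 between the *rsc* mutants. Under the paired sign-flip test every pair ran one way for *PHO5* upstream minus body (-0.43) and *ADH2* upstream (-0.63) in *rco1*Δ, *SUC2* upstream minus body in *rsc1*Δ (0.30), and *PHO5* body (-0.24), *PHO5* upstream minus body (0.25) and *SUC2* body (0.36) in *rsc2*Δ.

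Among region differences of *rco1*Δ from wild type, *PHO5* upstream was -0.38 after normexp, 0.041 after subtraction, -0.39 after loess, 0.35 with the table and -0.014 scaled. *ADH2* body was -0.30, -0.36, -0.19 and -0.16 after normexp, subtraction, loess and with the table, where arrays overlapped. *ADH2* upstream separated the arrays after normexp (-0.61), loess (-0.31), over bright probes (-1.26) and with boundaries moved 50 bp up (-1.21), a setting chosen after seeing the data. *SUC2* upstream minus body overlapped after subtraction (-1.19) and with the table (-1.60), and *PHO5* upstream minus body separated with medians (-0.57). In the input channel, *PHO5* upstream was -0.83 and *ADH2* upstream 0.34 after subtraction, *PHO5* body -0.25 and *SUC2* body -0.29 after normexp, and *ADH2* body -0.79 over bright probes. In the IP channel, *PHO5* body was -0.055, -0.80 and -0.45 after normexp, subtraction and over bright probes, and *SUC2* upstream -0.71 and -0.82 after normexp and subtraction.

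In *rsc1*Δ, *SUC2* upstream separated after loess (0.41) and with the table (0.23), and *ADH2* upstream after loess (-0.21) and scaled (-0.25). *SUC2* upstream minus body separated after normexp (0.49), loess (0.40), with the table (0.22) and over bright probes (0.57). *ADH2* body overlapped after normexp (-0.32) and loess (-0.22). *ADH2* upstream minus body overlapped after normexp (0.25), subtraction (0.35), loess (0.0050), with the table (0.13), over bright probes (0.76) and with medians (0.18).

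In *rsc2*Δ, *PHO5* upstream became -0.44 and *SUC2* upstream minus body 0.34 over bright probes. *PHO5* body separated after normexp (-0.18) and subtraction (-0.18), and *PHO5* upstream minus body with boundaries 50 bp up (0.39). *SUC2* upstream overlapped after normexp (0.21), subtraction (0.18), loess (0.025), with the table (0.17), scaled (0.13) and with boundaries 50 bp down (0.13). *ADH2* upstream overlapped after normexp (0.29), loess (0.086), with the table (0.21), scaled (0.17), over bright probes (0.38), within 500 bp (0.42) and with medians (0.36).

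Between *rsc1*Δ and *rsc2*Δ, *SUC2* body overlapped after normexp (-0.21), subtraction (-0.19), loess (-0.23), with the table (-0.15) and over bright probes (-0.24), and *ADH2* body likewise (-0.34, -0.37, -0.32, -0.26 and -0.33). *ADH2* upstream overlapped in the same settings (-0.36, -0.29, -0.30, -0.43 and -0.073), within 500 bp (-0.42) and with boundaries 50 bp up (-0.27). *ADH2* downstream became 0.018 after subtraction, 0.018 after loess and 0.19 over bright probes. *SUC2* upstream minus body separated after normexp (0.41).

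Leaving out 1 array changed whether arrays overlapped, or the sign, for these results, where 2 arrays against 3 overlap less easily by construction. In *rco1*Δ the range was -0.12 to 0.14 for *PHO5* body, -0.57 to -0.28 for *PHO5* upstream minus body, -0.92 to -0.42 for *ADH2* upstream, -0.18 to 0.41 for *ADH2* upstream minus body, 0.0046 to 0.58 for *SUC2* upstream input and -0.31 to -0.071 for *ADH2* upstream IP. In *rsc1*Δ it was 0.11 to 0.34 for *PHO5* upstream minus body, 0.071 to 0.39 for *SUC2* upstream, 0.061 to 0.46 for *SUC2* upstream minus body and -0.17 to -0.017 for *ADH2* upstream. In *rsc2*Δ it was -0.37 to -0.11 for *PHO5* body, 0.16 to 0.40 for *PHO5* upstream minus body, 0.21 to 0.50 for *SUC2* body, -0.32 to 0.11 for *SUC2* upstream minus body, -0.31 to 0.049 for *ADH2* body and 0.21 to 0.74 for *ADH2* upstream minus body. Between the *rsc* mutants it was -0.083 to 0.28 for *PHO5* body, -0.20 to 0.035 for *PHO5* upstream minus body, -0.21 to 0.11 for *SUC2* upstream and 0.14 to 0.61 for *SUC2* upstream minus body. Without *rco1*Δ replicate 1, the channel differences shrank by over 1.5 times for input in the *ADH2* body (-0.47), *ADH2* upstream (0.25) and *PHO5* body (-0.34) and for IP at *PHO5* upstream (-0.42), and without *rco1*Δ replicate 2 for IP at *SUC2* upstream (-0.41).

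Of 1020 recomputed region differences, 100 changed sign with neither value past the threshold. The causes of these changes were not tested. With 3 arrays a strain no exact test can pass 0.05, and only 14 of the 28 probes cleared the background well on every array. Bright probes left a single probe each for *PHO5* upstream, *PHO5* body, *ADH2* upstream and *ADH2* downstream.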
